A study of Caenorhabditis elegans with 6 samples.

Results

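The Notch pathway genes glp-1, lin-12, lag-1, lag-2 and apx-1 and the REF-1 family genes ref-1, hlh-25, hlh-26, hlh-27 and hlh-29 were read in embryos of the nematode Caenorhabditis elegans. They were chosen by name, as the rows whose gene symbol is 1 of these 10 genes, and rows shared with another gene were kept. This gave 11 of 22548 features, a feature being a probe set of an Affymetrix array. Of the 11, 9 name 1 gene. The other 2 name hlh-25 with hlh-27 and hlh-28 with hlh-29, and neither can tell its pair apart. Total RNA of whole mixed-stage embryos was hybridised to 6 arrays. The mutant group holds 3 arrays of mir-35-41(nDf50), a deletion that removes the microRNAs from mir-35 to mir-41, in strain VT2935 lacking nEx1187, which by nomenclature is an extrachromosomal array. The control group holds 3 arrays of the wild type strain N2. For both groups the worms fed on chicken egg yolk added to their agar medium at 20 degrees Celsius, and embryos were freed with hypochlorite. The comparison asks which embryonic transcripts differ when these microRNAs are missing. Other microRNAs of the family lie outside the deletion, so the mutant does not lack the whole family.

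In Notch signalling a ligand of the DSL type on 1 cell binds a Notch receptor on its neighbour, the receptor is cut, and its intracellular part enters the nucleus and joins a DNA-binding protein of the CSL type to switch on target genes. In this animal LAG-2 and APX-1 are ligands, GLP-1 and LIN-12 are the receptors, and LAG-1 is the CSL protein. In the early embryo the mother supplies glp-1 mRNA, and contacts between blastomeres through GLP-1 set the fates of anterior cells, the earliest with APX-1 as the ligand. The REF-1 family genes encode transcription factors with a pair of helix-loop-helix domains, and members of the family are switched on directly by Notch in these signalled cells.

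Several genes of the set are neighbours in the genome. In the RefSeq annotation of assembly WBcel235, glp-1 and lin-12 lie on chromosome III with 6 protein-coding genes between them, and lag-2 and apx-1 lie on chromosome V, also with 6 between them. The gene hlh-25 is next to hlh-26, with 1 gene between it and hlh-27, on chromosome II. That chromosome also carries ref-1 and the deleted microRNAs. The genes hlh-28 and hlh-29 are adjacent on chromosome X. The deletion itself cannot be checked here, since 0 features name any of the deleted microRNAs.

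The arrays did not separate by genotype alone. Wild type replicate 3 stood apart, with correlations of 0.944 to 0.971 with the other arrays, and 1643 to 3841 features at least 2-fold away from each of them. In the 5 pairs of arrays that include it, 0 features held the same deposited value on both arrays, while 308 to 1159 did in each of the other 10 pairs. Why its values differ in this way was not tested, and results that rest on it are given with and without it. Mutant replicates 2 and 3 were nearly alike (r = 0.998). Wild type replicate 2 resembled the mutant arrays (r = 0.984 to 0.987) more than wild type replicates 1 and 3 (r = 0.976 and 0.949). It had 543 to 793 features at least 2-fold away from each mutant array, and 1417 and 3414 from those wild type arrays. Values of single genes on this array were not tested apart from this array-wide likeness. A free-text line in the labels gives mutant replicates 1 and 2 an earlier stage than the other samples, in terms foreign to this animal, and it was not used. The labels do not say whether each replicate was its own culture. The p-values thus reflect only how far these samples spread, in part perhaps for technical reasons. Of the early maternal, early zygotic and late tissue marker genes of embryos, 13 of 15, 13 of 14 and 18 of 18 measured genes had a mean level at or above the median of all features. Of the adult body and sperm markers 3 of 15 did.

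None of the 11 features differed between the genotypes past the threshold, an adjusted p of 0.05 from limma over all 22548 features (0 of 11 features, against 0.129% of all features). At an unadjusted limma p under 0.05 the count was also 0, against 10.2% of all features. Without wild type replicate 3 this count was 2 (glp-1 and hlh-25 with hlh-27), against 2140 of all 22548 features. Without wild type replicate 2 it was 3, against 5461 features, and with any other array left out it was 0. The adjusted p values of the 11 lay between 0.497 and 0.948. The 95% interval of the difference contained 0 for each of the 11. Taken over all of them, the intervals ran from -1.38 to 1.59 on the log2 scale, so differences of up to about these sizes are not excluded for the least precise genes. The median difference, log2 mutant minus log2 wild type, was 0.11 over the 11 features and -0.096 over all features, and 7 of the 11 were positive against 37.8% of all features. The medians were 0.017 and -0.039 without wild type replicate 3, and 6 of the 11 were then positive. Of the 11, 9 had a mean at or above the median level of all features. With dimmer features left out, the median difference of the remaining features was -0.0094. When arrays were centred on their median, lin-12, hlh-26 and the first lag-1 feature turned negative. The plot of every feature tested shows the set inside the bulk of the features.

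**Figure D1:**
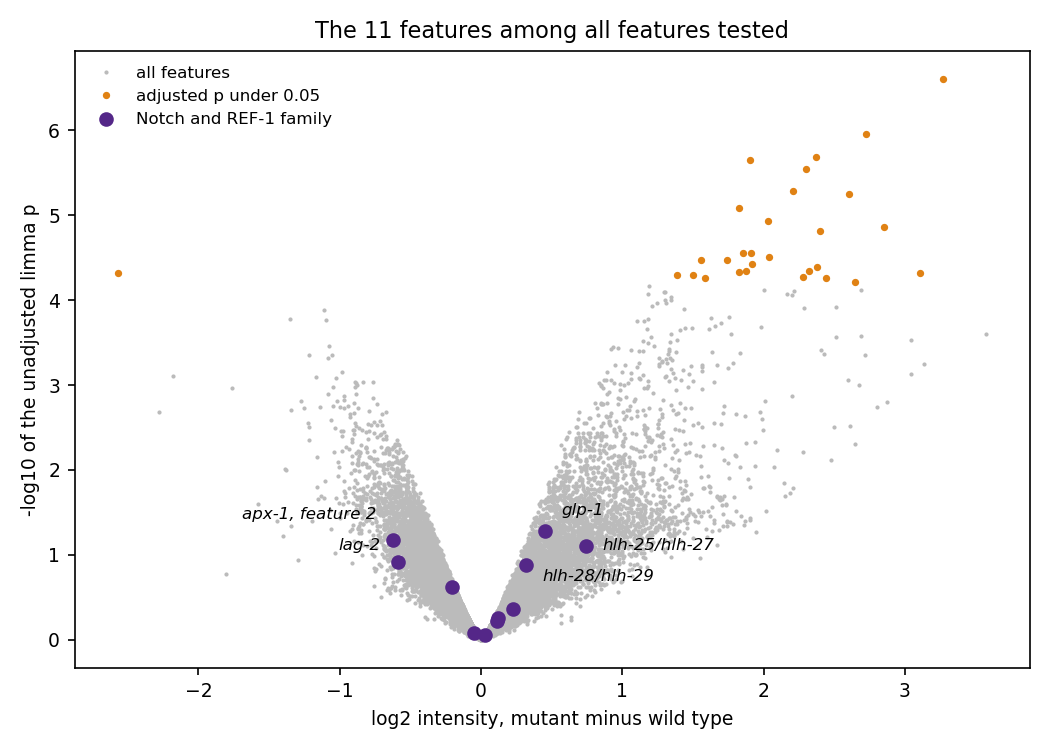
Each point is 1 feature, with the log2 difference, mutant minus wild type, on the x axis and -log10 of the unadjusted limma p on the y axis. The 11 Notch and REF-1 family features (large purple points) all lie below the 29 features with an adjusted p under 0.05 (orange), with differences from -0.63 to 0.74.

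On 4 of the 11 features the 3 mutant arrays lay on 1 side of the 3 wild type arrays, which is 36.4% of them, against 15.5% of all features. The mutant was higher on 3 (6.16% of all features) and lower on 1 (9.37% of all features). The higher features were those of glp-1, hlh-25 with hlh-27 and hlh-28 with hlh-29, and the lower was ref-1. Leaving out an array cannot make such groups overlap, so these 4 features had to remain without wild type replicate 3. No other feature of the 11 joined them then, while the share of all features was 23.4%. With so few such features, 3 of them from the REF-1 family, no test was made of this count.

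**Figure D2:**
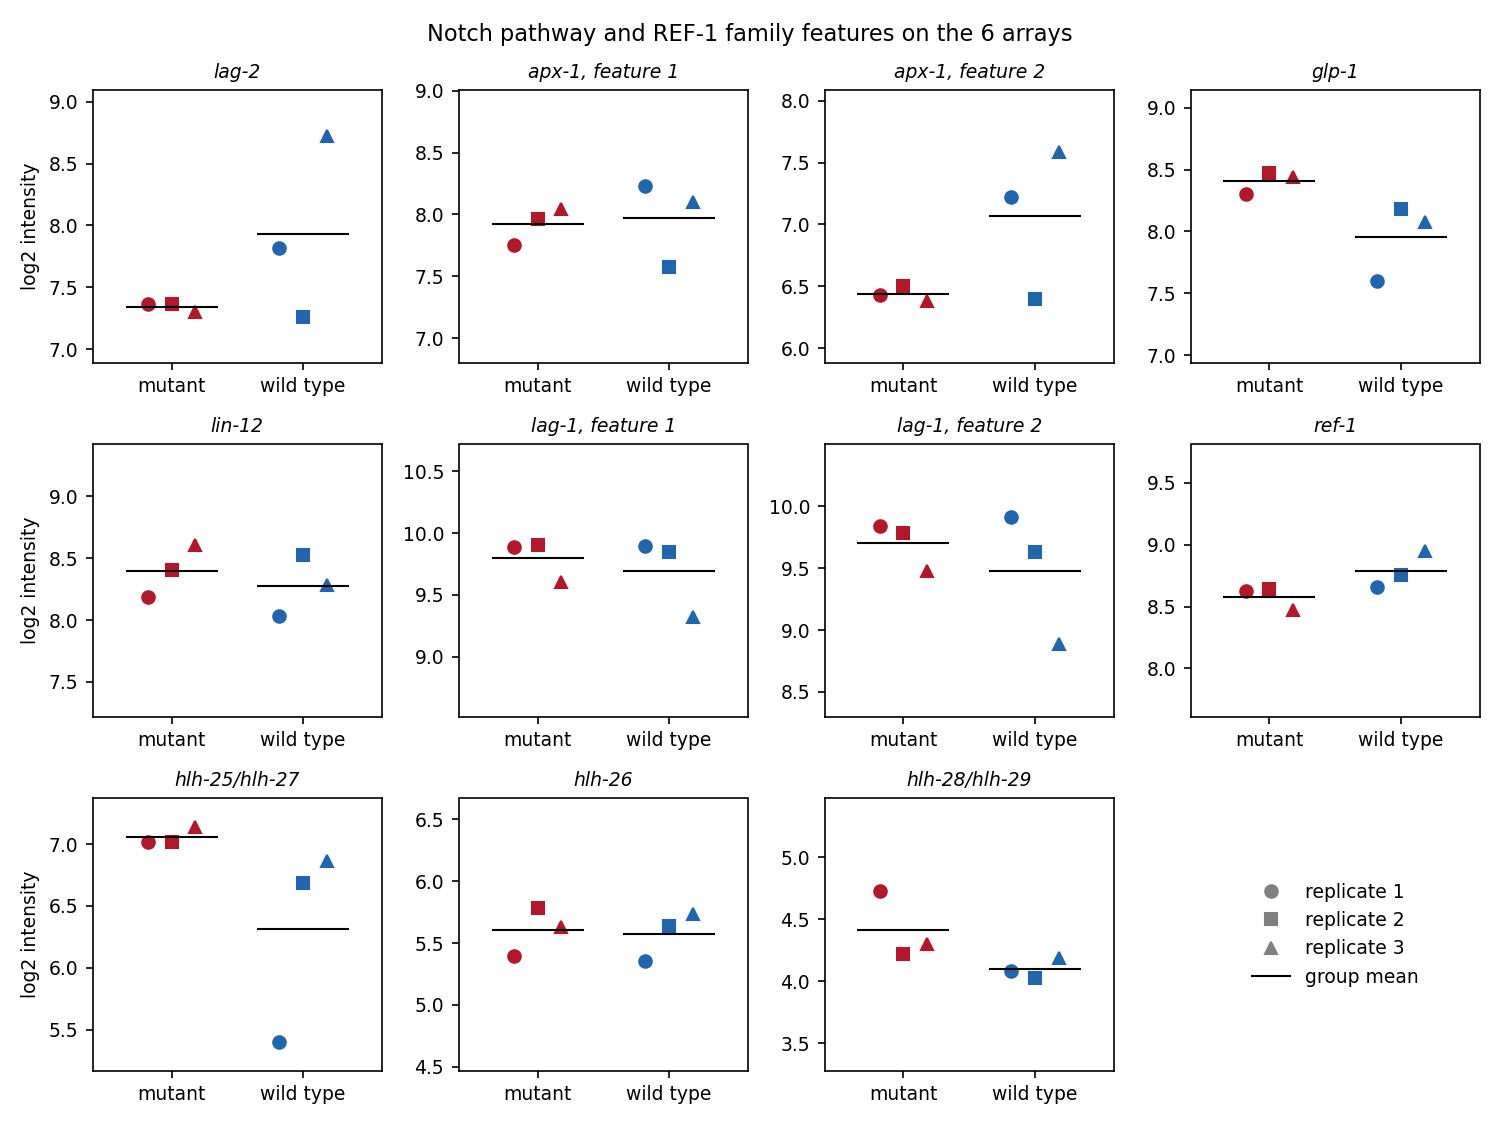
Each panel shows 1 feature, with log2 intensity on the y axis, the mutant arrays in red, the wild type arrays in blue, symbols for the replicate number and a bar at each group mean. Each y axis spans the same number of log2 units. The wild type arrays span a wider range than the mutant arrays on all features but hlh-26 and hlh-28 with hlh-29. The widest wild type ranges are those of hlh-25 with hlh-27, lag-2, the second apx-1 feature and the second lag-1 feature.

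The ligand genes lag-2 and apx-1 were at their highest on wild type arrays, without a difference between genotypes that passed the test. The gene lag-2 encodes a membrane-bound DSL ligand used from embryo to adult. Its intensity was 164.7, 164.7 and 157.5 on the mutant arrays and 225.6, 153.5 and 421.7 on the wild type arrays, each in the order of replicates 1, 2 and 3, which is kept throughout. The mutant arrays were close together, wild type replicate 2 was just below them, and wild type replicates 1 and 3 were above. The deposited value was identical on mutant replicates 1 and 2, as it was for 2.79% of all features. On the log2 scale the mean was 7.34 ± 0.04 in the mutant and 7.93 ± 0.74 in wild type (SD, n = 3 arrays each), a difference of -0.59 ± 0.34 (SE) with a limma adjusted p of 0.566. The difference was -0.20 ± 0.19 without wild type replicate 3 (adjusted p = 0.778) and -0.93 without wild type replicate 2 (adjusted p = 0.109). In RNA of whole embryos, fewer cells that express a gene and less of its RNA per cell cannot be told apart.

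The gene apx-1 encodes the DSL ligand that the posterior blastomere presents to its anterior neighbour at the start of embryogenesis. Its 2 features gave different pictures. The first read 215.6, 249.3 and 263.6 on the mutant arrays and 300.2, 190.4 and 274.7 on the wild type arrays. The groups overlapped fully, with the lowest and the highest value both in wild type. The difference was -0.049 ± 0.21 (log2, SE; adjusted p = 0.917), and it was 0.017 without wild type replicate 3. The second feature read 86.44, 90.62 and 83.52 on the mutant arrays and 149.0, 84.21 and 191.6 on the wild type arrays. As for lag-2, wild type replicates 1 and 3 were above every mutant array, and wild type replicate 2 was among them. The difference was -0.63 ± 0.29 (log2, SE; limma adjusted p = 0.510), and -0.37 ± 0.26 without wild type replicate 3 (adjusted p = 0.708). Without wild type replicate 2 this feature passed the test, at -0.96 with a limma adjusted p of 0.0335, in a fit that called 5.72% of all features.

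The wild type arrays disagreed on the ligands by more than the genotypes differed. Set against the mutant mean on the log2 scale, lag-2 was 0.48 higher on wild type replicate 1, 1.38 higher on wild type replicate 3 and at -0.080 on wild type replicate 2. For the second apx-1 feature these values were 0.78, 1.14 and -0.044. No mutant array was further than 0.062 from the mutant mean on either feature.

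Markers of the earliest stage were also highest on wild type replicates 1 and 3, but with replicate 1 above replicate 3. The 15 early maternal genes, such as cpg-2 and cpg-3 for eggshell proteoglycans and the meiotic spindle gene mei-1, had a median deviation from their 6-array means of 0.48, -0.14 and 0.38 on the wild type arrays and between -0.34 and -0.082 on the mutant arrays. Their summed intensity was 7674 to 8711 in the mutant and 13450, 9463 and 13360 in wild type. By this sum wild type replicate 2 was above every mutant array, unlike for lag-2. Of the 15 genes 13 had a negative difference, with a median of -0.61, and 0 passed the test over all features. At an unadjusted limma p under 0.05, 6 of the 15 were lower, against 10.2% of all features in either direction. For 4 of the 15 every mutant array was below every wild type array, against 9.37% of all features. None was at 0 intensity, the lowest value being 27.75. The difference was -1.14 ± 0.24 for cpg-2 and -0.61 ± 0.16 for mei-1 (log2, SE; limma adjusted p = 0.200 and 0.291). The adult body and sperm markers also stood highest on wild type replicate 3, with a median deviation of 0.52, against -0.22 to -0.0034 on the other 5 arrays. Their summed intensity was 768.3 to 934.1 in the mutant and 705.7 to 1150 in wild type, none of the 15 was at 0, and the lowest value was 10.25. The median difference of these markers was -0.26, with 4 positive and 11 negative. It was -0.19 over the 14 early zygotic markers (4 positive, 10 negative) and -0.041 over the 18 late tissue markers (8 positive, 10 negative). Of these 3 lists 0 genes passed the test by limma. Over all features 37.8% of differences were positive, with a median of -0.096. When wild type replicate 3 was left out, the adult body and sperm median turned to 0.029 (8 positive, 7 negative) and the late tissue median to 0.018 (9 positive, 9 negative). The early zygotic median was then -0.053 (5 positive, 9 negative) and the early maternal median -0.52 (1 positive, 14 negative). What part embryo stage or adult material has in the ligand values was not tested.

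**Figure D3:**
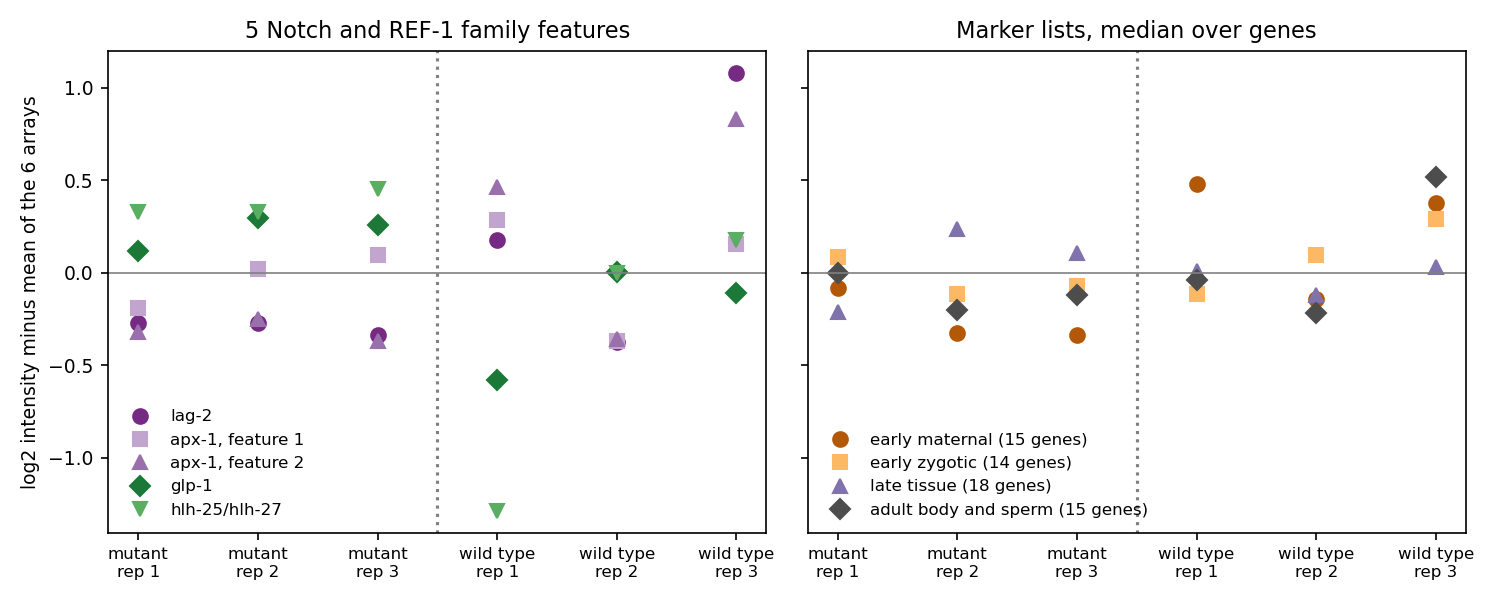
The y axis gives log2 intensity minus the mean of the 6 arrays, which stand along the x axis. On the left are 5 features of the set and on the right the median over the genes of each marker list. The lag-2 and second apx-1 points are high on wild type replicates 1 and 3, as are the early maternal markers, and hlh-25 with hlh-27 and glp-1 are lowest on wild type replicate 1.

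The receptor gene glp-1 had the smallest p of the set. GLP-1 is the Notch receptor of the early embryo and of the germline stem cells. Its intensity was 315.1, 356.2 and 347.5 on the mutant arrays and 194.4, 291.2 and 269.3 on the wild type arrays. Every mutant array was above every wild type array, and wild type replicate 1 was far below the rest. The mean log2 intensity was 8.41 ± 0.09 in the mutant and 7.95 ± 0.31 in wild type (SD, n = 3 each). The difference of 0.45 ± 0.20 (SE), or 1.37-fold, had an unadjusted p of 0.0530 and an adjusted p of 0.497 by limma, with a 95% interval from -0.0076 to 0.91. It was 0.51 ± 0.20 without wild type replicate 3 (adjusted p = 0.521) and 0.28 without wild type replicate 1 (adjusted p = 0.687).

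The other receptor gene, lin-12, acts with glp-1 later in the embryo and in larval cell fate choices. It read 291.3, 339.2 and 390.2 on the mutant arrays and 261.5, 368.8 and 311.0 on the wild type arrays. The groups overlapped, and the SD within each was larger than the gap between their means. The difference was 0.12 ± 0.20 (log2, SE; limma adjusted p = 0.774), with a 95% interval from -0.34 to 0.58. The unequal separation of glp-1 and lin-12 is a description, and the difference between the receptors was not tested.

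The gene lag-1 encodes the DNA-binding protein that carries the signal of both receptors to target genes. Its 2 features ranked the arrays in nearly the same way. The first read 949.7, 960.5 and 780.0 on the mutant arrays and 954.1, 921.1 and 641.4 on the wild type arrays. The second read 916.2, 883.2 and 712.9 on the mutant arrays and 962.9, 790.8 and 474.0 on the wild type arrays. On both features wild type replicate 3 was lowest and mutant replicate 3 next, and the groups overlapped. The differences were 0.11 ± 0.21 and 0.23 ± 0.28 (log2, SE; limma adjusted p = 0.800 and 0.710). Both changed sign without wild type replicate 3, to -0.071 and -0.068 (adjusted p = 0.901 and 0.928), so no direction can be given for lag-1.

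Among the REF-1 family targets the feature shared by hlh-25 and hlh-27 had the largest difference of the set. It read 129.2, 129.2 and 140.9 on the mutant arrays and 42.16, 102.9 and 116.2 on the wild type arrays. The mutant arrays were all above the wild type arrays, and wild type replicate 1 was well below the other 5. The mean log2 intensity was 7.06 ± 0.07 in the mutant and 6.31 ± 0.80 in wild type (SD, n = 3 each). The difference of 0.74 ± 0.37 (SE), or 1.67-fold, had a limma adjusted p of 0.523 and a 95% interval from -0.11 to 1.59. It was 1.01 ± 0.38 without wild type replicate 3 (adjusted p = 0.502). Without wild type replicate 1 it was 0.28 (adjusted p = 0.687), so most of its size came from that array.

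The feature shared by hlh-28 and hlh-29 was dim, below the median level of all features. It read 26.49, 18.60 and 19.70 on the mutant arrays and 16.91, 16.29 and 18.20 on the wild type arrays. All mutant values were above all wild type values, but mutant replicates 2 and 3 stood close to the wild type arrays. The difference was 0.32 ± 0.19 (log2, SE; limma adjusted p = 0.572), and it was 0.16 without mutant replicate 1 (adjusted p = 0.657). The table gives no detection call, so whether this feature was above background is not known.

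The gene ref-1, first known as a regulator of epidermal cell fusion, pointed the other way. It read 396.0, 399.0 and 355.1 on the mutant arrays and 404.3, 432.9 and 493.7 on the wild type arrays. Every mutant array was below every wild type array, by a narrow margin for mutant replicates 1 and 2 against wild type replicate 1. The difference was -0.21 ± 0.16 (log2, SE; limma adjusted p = 0.614), and -0.13 ± 0.11 without wild type replicate 3 (adjusted p = 0.766). The gene hlh-26, also dim, read 42.16, 54.98 and 49.49 on the mutant arrays and 41.00, 49.70 and 53.29 on the wild type arrays. These overlapped fully, at a difference of 0.026 ± 0.18 (log2, SE; limma adjusted p = 0.948) with a 95% interval from -0.40 to 0.46. The 4 features of the family therefore pointed in different directions, and none of their differences passed the test.

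**Figure D4:**
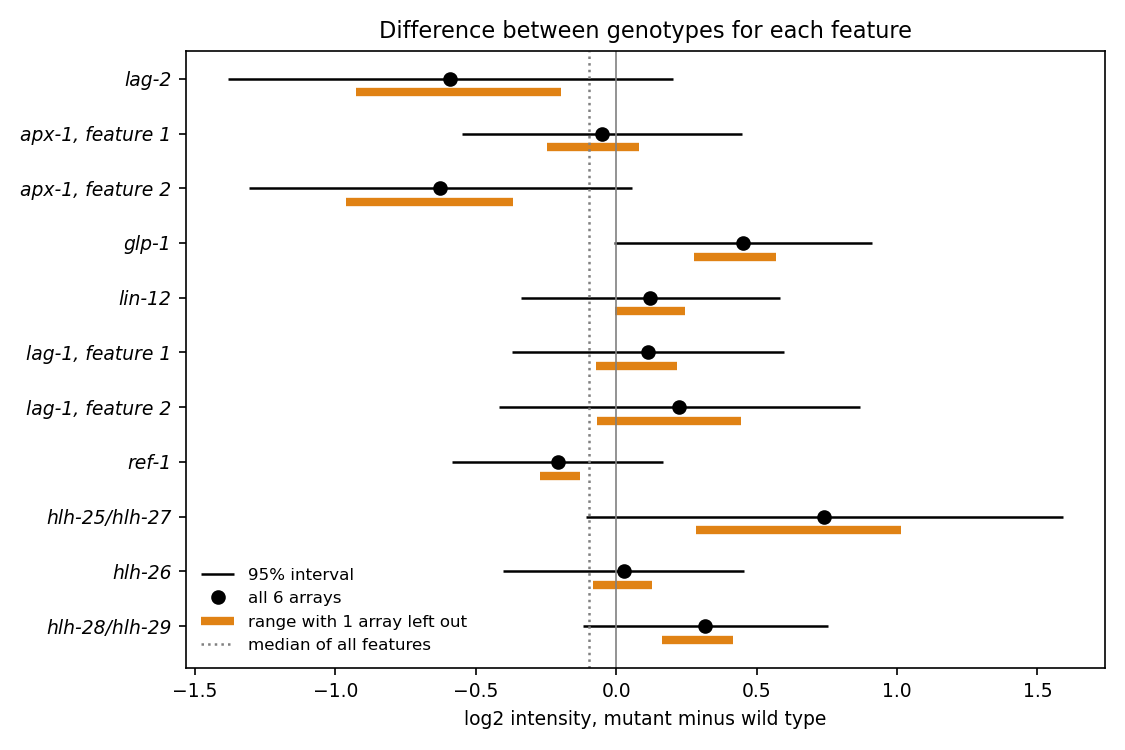
The x axis is the log2 difference, mutant minus wild type, for each feature. Points and black lines give the difference and its 95% interval from all 6 arrays, orange bars the range when 1 array is left out, and the dotted line the median of all features at -0.096. All 11 intervals contain 0, and the orange bars cross 0 for lin-12, hlh-26, the first apx-1 feature and both lag-1 features.

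The rest of the pathway was read from 4 lists of 43 genes, of which 40 have a feature of their own. For each gene the feature with the highest mean was used. None passed the test over all features (0 of 40, against 0.129% of all features), and 4 had an unadjusted limma p under 0.05, against 10.2% of all features. The sign counts of each list stand beside 37.8% positive differences and a median of -0.096 over all features. Among the 12 measured genes of other DSL ligands and of their co-ligands 5 differences were positive and 7 negative, with a median of -0.14. The DSL genes dsl-1 and dsl-2 were at -0.52 ± 0.22 and -0.55 ± 0.24 (log2, SE; limma adjusted p = 0.489 and 0.502). For both, mutant replicate 1 was within the wild type values, and only the nearly alike mutant replicates 2 and 3 were below. The log2 intensity of dsl-2 was 11.34, 10.55 and 10.53 on the mutant arrays and 11.30, 11.30 and 11.46 on the wild type arrays. The gene dos-2 was at -0.42 ± 0.25 and dsl-6 at 0.50 ± 0.31. The balance turned when wild type replicate 3 was left out, to 7 positive and 5 negative with a median of 0.038, and dsl-6 was then at 0.21.

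Receptor cleavage is carried out by the ADAM protease SUP-17 and by gamma-secretase, built from a presenilin (SEL-12 or HOP-1), APH-1, the nicastrin APH-2 and PEN-2. Of the 7 measured genes 3 had a positive difference and 4 a negative one, with a median of -0.081. The smallest p was that of pen-2, whose log2 intensity was 9.83, 9.68 and 9.78 on the mutant arrays and 10.08, 10.31 and 10.16 on the wild type arrays. All its mutant values were below all wild type values, at a difference of -0.42 ± 0.16 (SE; limma adjusted p = 0.451). The largest difference was that of aph-2, at 0.99 ± 0.53 (adjusted p = 0.545). Its log2 intensity was 9.04, 8.85 and 8.98 on the mutant arrays and 7.25, 9.36 and 7.26 on the wild type arrays, so wild type replicate 2 was the highest array and the other wild type arrays the lowest. It passed the test without wild type replicate 2, at 1.70 with a limma adjusted p of 0.00726, in the fit that called 5.72% of all features. It was at 0.64 without wild type replicate 3 (adjusted p = 0.778). The other differences were -0.44 ± 0.27 for sel-12, -0.19 ± 0.16 for aph-1, -0.081 ± 0.22 for hop-1 and 0.066 ± 0.25 for sup-17. The gene adm-4, a further ADAM protease gene named so that all 7 are given, was at 0.27 ± 0.23. For sel-12 mutant replicate 1 was above the wild type arrays, at 9.73 against 9.41 to 9.69. Mutant replicates 2 and 3 were below them, at 8.86 and 8.79. Leaving out wild type replicate 3 gave -0.039 for hop-1, -0.087 for sup-17 and 0.073 for adm-4, so the sign of sup-17 turned, and 2 of the 7 genes were then positive.

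Of 10 measured nuclear cofactors and regulators, 5 differences were positive and 5 negative, with a median of 0.011. The coactivator gene sel-8 was at -0.16 ± 0.19 and sel-10, an F-box gene that restrains the receptors, at -0.14 ± 0.17 (log2, SE; limma adjusted p = 0.692 and 0.699). The sel-8 feature was dim, below the median level of all features, and whether it was above background is not known. The negative regulator sel-1 was at 0.38 ± 0.17, with all mutant arrays above all wild type arrays (adjusted p = 0.506). The transcription elongation gene emb-5 was at 0.98 ± 0.45 (adjusted p = 0.508), the epsin gene epn-1 at -0.37 ± 0.21 and sel-5 at 0.22 ± 0.24. Leaving out wild type replicate 3 turned the median to -0.017, with 4 positive and 6 negative, and gave -0.018 for sel-8, -0.19 for epn-1 and 0.14 for sel-5.

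Among 11 further genes reported as Notch targets or acting beside them, 4 differences were positive and 7 negative, with a median of -0.18. Over all features 37.8% of differences were positive, so the sign count of this list is near that share. The T-box genes tbx-37 and tbx-38, which act in descendants of the anterior blastomere ABa, were at -0.63 ± 0.31 and -0.33 ± 0.26 (log2, SE; limma adjusted p = 0.528 and 0.619). Every mutant array was below every wild type array for tbx-37, which was dim, below the median level of all features. Its difference was -0.26 without wild type replicate 3, and that of tbx-38 was -0.064. The germline stem cell targets lst-1 and sygl-1 were at -0.47 ± 0.20 and -0.36 ± 0.20, and lst-2, a target found in the vulval cells, at 0.61 ± 0.25 (adjusted p = 0.489, 0.557 and 0.478). For sygl-1, also dim, the difference was -0.20 without wild type replicate 3. The mutant arrays were all below the wild type arrays for lst-1 too, thus for 2 of the 11 genes, against 9.37% of all features.

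Maternal RNA-binding proteins and their partners control where glp-1 mRNA is translated and which blastomeres can signal. A list of 13 measured maternal regulators, mostly of this kind, had 12 negative differences and 1 positive, with a median of -0.29. Over all features 37.8% of differences were positive, with a median of -0.096. The positive one was the transcription factor gene skn-1, at 0.17, and 0 of the 13 passed the test. The gene pie-1, a germline determinant, was at -0.68 ± 0.29 with all mutant arrays below all wild type arrays (log2, SE; limma adjusted p = 0.490). The zinc finger genes oma-2 and oma-1 were at -0.49 ± 0.22 and -0.55 ± 0.26, the Pumilio-family gene puf-7 at -0.65 ± 0.31 and gld-1, a repressor of glp-1 translation, at -0.053 ± 0.27. On the wild type arrays the list had median deviations of 0.15, -0.28 and 0.46. Its median difference was -0.11 without wild type replicate 3, with 10 negative and 3 positive. In that fit pie-1 was at -0.39, oma-1 at -0.34, puf-7 at -0.39 and gld-1, with its sign turned, at 0.097.

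The genes whose log2 values most resembled those of 3 members over the 6 arrays were picked by Pearson correlation among features at or above the median level. For glp-1 these were the RNA helicase gene rha-1 (r = 0.996), F46B6.5 (r = 0.986) and the mismatch repair gene pms-2 (r = 0.981). For the first lag-1 feature they were bli-4, unc-5 and clh-5 (r = 0.985, 0.983 and 0.983), and for ref-1 they were skr-8, ntl-2 and cdl-1 (r = 0.978, 0.977 and 0.974). Such correlations are common with 6 arrays that share their normalization and their groups, and 213, 170 and 106 features had an r over 0.9 with glp-1, lag-1 and ref-1.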

How the data were processed

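The authors deposited 1 gene-annotated table of normalized intensity for every array, with a linear value for each probe set. A further deposited table gives these values as log2, at most 5.63e-06 away. Affymetrix Expression Console was used, per the submitters' processing notes. Which version and which normalization it used is not given in the sources used here. Any shift common to most genes may have been removed in that step. The array medians of the deposited values were still unequal. They were 6.49, 6.56 and 6.56 (log2) on the mutant arrays and 6.43, 6.51 and 6.29 on the wild type arrays. No depth applies to arrays, and their number, 3 per group, limits the precision.

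Groups came from the sample titles and column names. Of 22625 features 77 array controls were left out. Names were updated through RefSeq (WBcel235), used for names and gene order only. Log2 intensity, with no constant added, was fitted for all 22548 features by lmFit and eBayes (limma 3.58.1, R 4.3.3; two-sided, unpaired), with Benjamini-Hochberg adjustment. The fit was tested on simulated data. Named are every feature of the members, a few fixed pathway genes, and the 4 genes with the smallest p in each pathway list and the maternal regulator list. Of the marker lists mainly levels and deviations are given. Alternatives left out each array in turn or changed the block, normalization, filter, added constant or variance model. The members and lists were chosen with earlier results of these data known. Sequences were not used here.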

Additional observations from a re-analysis of the deposited data

How the results depend on the processing

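Over all features 29 passed the threshold. The count was 0, 0 and 0 without mutant replicates 1, 2 and 3 and 47, 1289 and 1 without wild type replicates 1, 2 and 3, a range of 0 to 1289. It was 19 with the replicate number as a block, 3 after quantile normalization again, 50 with arrays centred on their median, 8 with 16 added before log2, 46 with an intensity trend and robust prior, 38 with dim features left out and 29 from the series value table or with a minimum of 2-fold. Array weights, whose estimate did not converge, gave 13639, and gene-by-gene weights, added after seeing the data, 3608. Averaging mutant replicates 2 and 3 as 1 sample, also added, gave 0, with 1059 features at an unadjusted p under 0.05. Of the 11 Notch and REF-1 family features, 0 to 1 passed with an array left out and 0 under the other settings without weights, the replicate block included. With array weights 9 passed, against 60.5% of all features. With gene-by-gene weights 3 passed (the second apx-1 feature, glp-1 and hlh-25 with hlh-27), against 16% of all features. Both gave wild type replicate 1 the largest wild type weight. It was 21.1 against 0.20 and 0.095 for wild type replicates 2 and 3, and gene by gene 1.77 against 0.38 and 0.14. Of the 40 other pathway genes 0 to 1 passed with an array left out. No label says that the shared replicate numbers pair the arrays, and deviations of same-numbered arrays correlated at -0.032, 0.072 and -0.18.

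With an array left out, the difference ranged from -0.25 to 0.082 for the first apx-1 feature, -0.0037 to 0.24 for lin-12, -0.071 to 0.22 and -0.068 to 0.44 for the lag-1 features and -0.083 to 0.13 for hlh-26. Centring gave -0.0079 for lin-12, -0.017 for the first lag-1 feature and -0.10 for hlh-26, which was at -0.0050 after quantile normalization and -0.025 with mutant replicates averaged. The lag-1 features were at -0.14 and -0.27 with array weights and -0.094 and -0.16 with gene-by-gene weights. The cause was not tested. The sign stayed the same under every setting tested for glp-1, lag-2, ref-1, the second apx-1 feature, hlh-25 with hlh-27 and hlh-28 with hlh-29. The groups did not overlap for glp-1, ref-1, hlh-25 with hlh-27 and hlh-28 with hlh-29. For these only quantile normalization or centring could have turned the sign.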
